A study of Saccharomyces cerevisiae with 6 samples.

Results

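Described here are 32 genes of budding yeast, Saccharomyces cerevisiae, that act around the passage from G1 into S phase: cyclin genes, DNA replication genes, cohesin genes and some others transcribed in the same window. They were taken by name from a fixed list, as probe sets whose annotation names exactly 1 of them. That list was drawn up with earlier results of these data known. All 32 were found, each with 1 probe set, among 5551 genes tested. Messenger RNA was read on 6 arrays. Yeast carrying TRA1 (called wild type below) and yeast carrying the temperature-sensitive allele tra1-2ts were moved from 30 to 37 °C, and each was sampled once after 60, 90 and 120 min. Both strains were MATa haploids with the alleles ade2-101, his3∆200, leu2∆1, lys2-801, trp1∆63 and ura3-52, grown in YPD. In both, the chromosomal copy of TRA1 was disrupted by HIS3, so each lived on a plasmid-borne copy, TRA1 or tra1-2ts, on a CEN plasmid marked with LEU2. The unit throughout is log2 signal, so that 1 unit is a 2-fold change. Replicates are here the 3 times of each strain. In a strain comparison that leaves time out, their spread therefore includes change over time. Nothing in the labels says that they were separate cultures, so p-values measure only the spread between these arrays, the rest of which may be technical.

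In budding yeast, commitment to division is made late in G1. The cyclin Cln3 with the kinase Cdc28 activates the related transcription factors SBF (Swi4 with Swi6), which Whi5 holds back, and MBF (Mbp1 with Swi6), and these switch on a wave of genes. SBF is best known for cyclin, bud and cell wall genes, and MBF for genes of DNA replication and repair. Cln1 and Cln2 reinforce the wave and start budding, Clb5 and Clb6 start DNA synthesis, and cohesin made in the same window holds the new sister chromatids together. A shift to higher temperature is known to hold yeast in G1 for a while, with low CLN1 and CLN2 mRNA. Tra1 is the subunit of the histone acetyltransferase complexes SAGA and NuA4 that transcriptional activators contact.

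Facts of the whole data set bear on how these values are read. Arrays of the same strain correlated at a Pearson r of at least 0.992 over the 6776 probe sets, and arrays of different strains at 0.971 or more. The mating-type label could be checked: of the genes special to a cells, MFA2 averaged 11.56 in wild type and 12.96 in tra1-2ts, and STE2, the receptor for alpha-factor, 7.70 and 8.40. Of the genes special to alpha cells, STE3 averaged 3.50 and 3.73 and MF(ALPHA)2 3.95 and 4.14, while MF(ALPHA)1 averaged 5.15 and 5.59 and SAG1 6.23 and 6.72. The 4 control probe sets for mouse genes, which have no target in yeast, read from 2.19 to 4.22. Of the 32 genes, 5 had all 6 values under 4.22 (CLB6, CDC21, IRR1, SPT21 and TOS4), 6 had 1 to 5 values under it and 21 had none. What part background correction had in the differences of the low genes was not tested. The mean of the mouse controls itself was 0.23 higher at 120 than at 60 min in wild type and 0.24 higher in tra1-2ts.

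**Figure D1:**
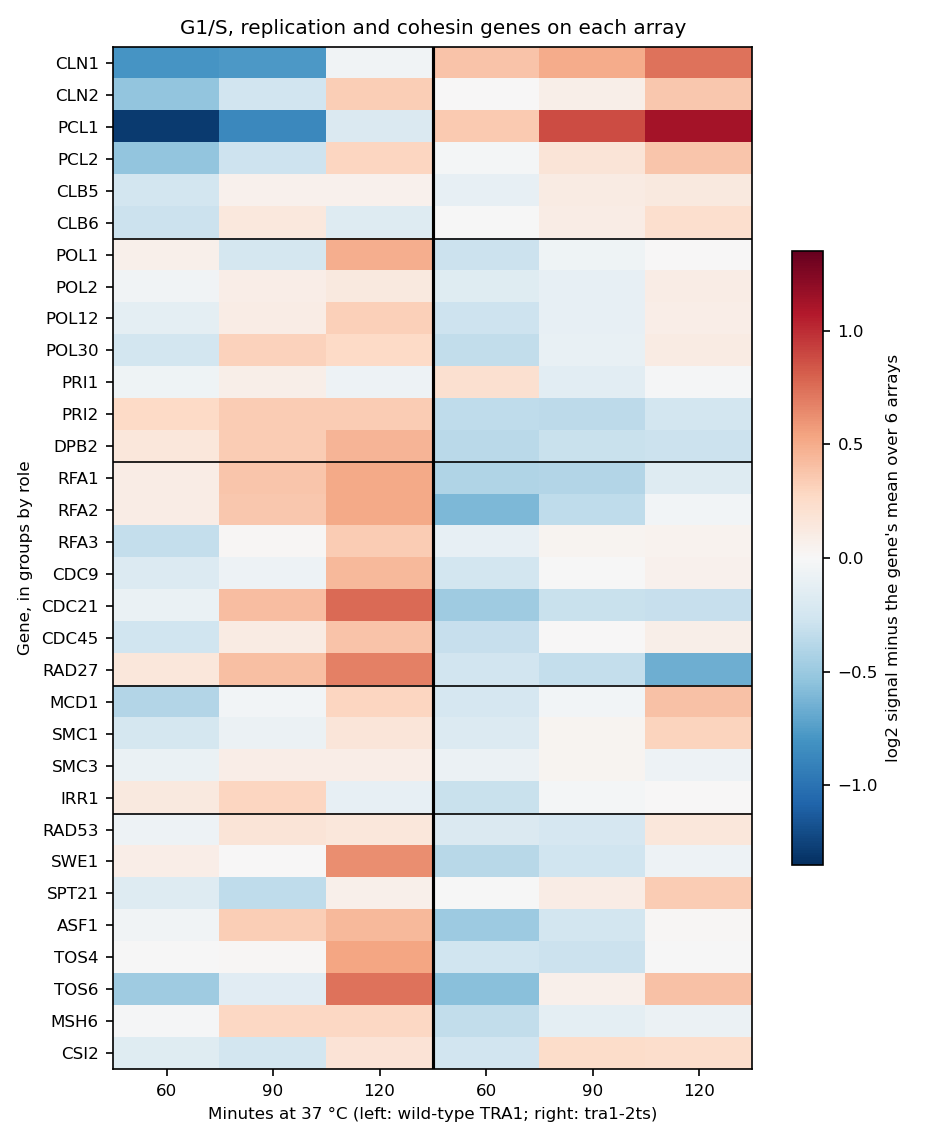
Each row is 1 gene and each column 1 array, with time in minutes at 37 °C along the x axis, wild type left of the thick line and tra1-2ts right of it. Colour is the log2 signal minus the gene's own mean over the 6 arrays, and thin lines part the groups (cyclins, polymerases, other replication genes, cohesin, others). The cyclin rows CLN1 and PCL1 are bluest in wild type. The rows RAD27, CDC21, RFA1 and RFA2 are on average bluest in tra1-2ts. Most rows redden towards 120 min in each strain.

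The first comparison asked which of these genes differed between the strains. The cyclin genes PCL1 and CLN1 were higher in tra1-2ts, and several genes for single-strand binding, priming and flap processing were lower. PCL1 was 2.97-fold and CLN1 2.11-fold higher, and RAD27, CDC21, RFA1, RFA2, DPB2, PRI2, SWE1, ASF1 and MSH6 were between 1.28- and 1.77-fold lower. The other 21 genes did not pass the test. The test was limma's on genotype alone, adjusted by Benjamini-Hochberg over all 5551 genes, with a threshold of 0.05. By that rule 40.6% of all genes were called, 18.3% higher and 22.3% lower, against 34.4% of the 32 genes, 6.25% higher and 28.1% lower. At an unadjusted p under 0.05, 49.8% of all genes passed, 23.4% higher and 26.4% lower, and 12 of the 32 genes, 2 higher and 10 lower. Among called genes, PCL1 and CLN1 were past 2-fold on the higher side and 0 of the 32 on the lower, where 2.43% and 2.92% of all genes were. The number of calls therefore does not set these genes apart, although 21 of 32 differences were below 0, where 49.9% of all genes were, with a median of -0.14 beside 0.00 over all genes. In bulk RNA of this kind, a change in the share of cells at a stage of the cycle and a change of RNA per cell cannot be told apart.

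The cyclin genes PCL1 and CLN1 came first in size. PCL1 (YNL289W) encodes a cyclin of the kinase Pho85 that acts in G1. Its log2 signal was 4.06, 4.47 and 5.15 at 60, 90 and 120 min in wild type and 5.70, 6.22 and 6.47 in tra1-2ts. Every tra1-2ts array lay above every wild-type array, although both strains climbed, and the 60 min mutant value exceeded the 120 min wild-type value. The difference was 1.57 ± 0.28 (SE, n = 3 arrays per strain; limma adjusted p = 0.00253). CLN1 (YMR199W), a G1 cyclin of Cdc28, read 4.20, 4.22 and 4.95 in wild type and 5.38, 5.50 and 5.73 in tra1-2ts. These groups did not overlap either, and the difference was 1.08 ± 0.20 (limma adjusted p = 0.00307). For PCL1 and CLN1 respectively, 1 and 2 wild-type values lay under the highest mouse control. Groups that do not overlap were common here, since 53.8% of all genes had them, 26.1% with tra1-2ts higher and 27.7% with it lower. Among the 32 genes 10 had them, 2 higher and 8 lower.

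The close relatives of these cyclins did not pass. CLN2 (YPL256C), the partner of CLN1 in its role, read 5.83, 6.11 and 6.70 in wild type and 6.38, 6.44 and 6.73 in tra1-2ts. The mutant was higher by 0.54 at 60 min and by 0.03 at 120 min, and the groups overlapped (difference 0.30, 95% interval -0.17 to 0.77, limma adjusted p = 0.273). PCL2 (YDL127W), the second Pho85 cyclin of G1, read 4.95, 5.20 and 5.78 in wild type and 5.45, 5.66 and 5.85 in tra1-2ts, a difference of 0.35 (interval -0.11 to 0.80, adjusted p = 0.198). With minutes added to the fit as a covariate, PCL2 passed (adjusted p = 0.028), as did SPT21 and TOS4, which gave 4 genes higher and 10 lower. CLB5 (YPR120C), the main S phase cyclin, read 6.09, 6.41 and 6.41 in wild type and 6.24, 6.46 and 6.48 in tra1-2ts, and its difference of 0.09 had an interval of -0.18 to 0.36. CLB6 (YGR109C), its partner, stayed between 2.32 and 2.84 on all arrays, within the range of the mouse controls. All 6 cyclins had a positive difference, with a median of 0.32.

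**Figure D2:**
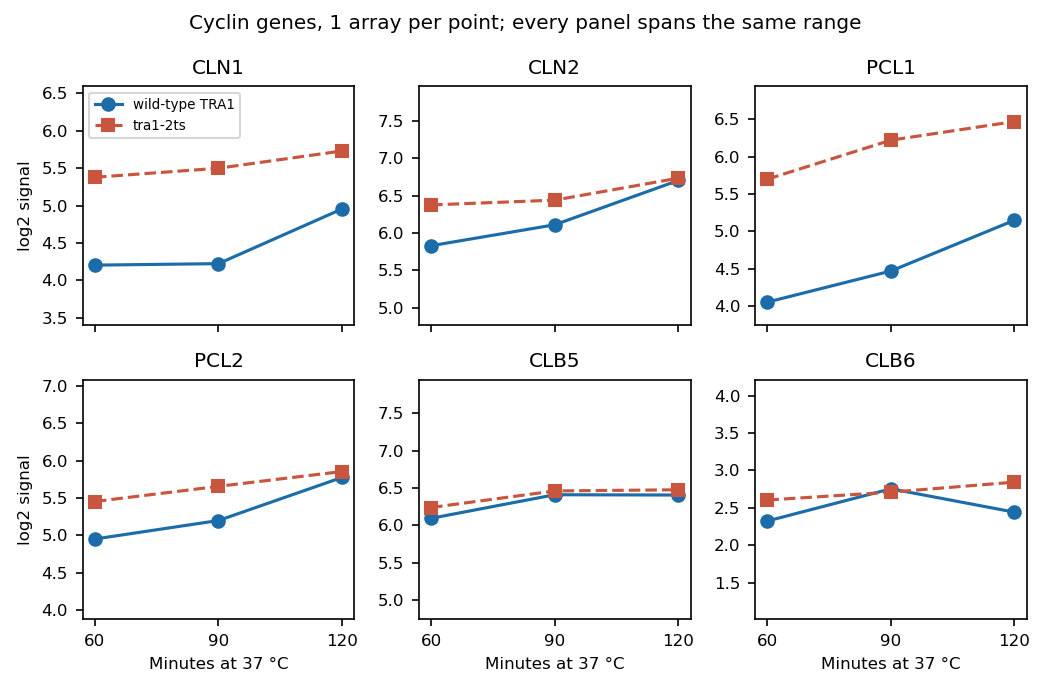
Log2 signal of the 6 cyclin genes against minutes at 37 °C, 1 array per point, circles with solid lines for wild type and squares with dashed lines for tra1-2ts; every panel spans the same range. CLN1 and PCL1 are separated at all 3 times, while CLN2 and PCL2 start apart at 60 min and lie within 0.08 of each other at 120 min. CLB5 runs close together in the strains. CLB6 differs by 0.28, -0.04 and 0.40 (tra1-2ts minus wild type) at 60, 90 and 120 min.

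Among the 7 genes for DNA polymerases, primase and the sliding clamp, 2 were lower in tra1-2ts, none was higher and 5 did not pass. Over all genes 22.3% were called lower and 18.3% higher. The median difference of the 7 was -0.22. PRI2 (YKL045W), the large subunit of primase, read 5.68, 5.76 and 5.76 in wild type and 5.08, 5.07 and 5.16 in tra1-2ts. The 3 arrays of each strain were tightly grouped and far apart, with a difference of -0.63 ± 0.08 (SE; limma adjusted p = 0.000677), the smallest p of the 32 genes. DPB2 (YPR175W), the second subunit of DNA polymerase epsilon, read 5.73, 5.92 and 6.04 in wild type and 5.22, 5.29 and 5.29 in tra1-2ts (-0.63 ± 0.10, adjusted p = 0.00154). Their direct partners in the same complexes gave smaller values. PRI1, the catalytic subunit of primase, differed by 0.04 (interval -0.22 to 0.29), and POL2, the catalytic subunit of polymerase epsilon, by -0.12 (interval -0.35 to 0.11). POL1 and POL12, both of polymerase alpha, differed by -0.22 and -0.20, and POL30, the clamp PCNA, by -0.22, and none of these passed.

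Of the 7 genes for single-strand binding, initiation, Okazaki fragment processing and nucleotide supply, 4 were lower, none was higher and 3 did not pass. Over all genes 22.3% were called lower and 18.3% higher. The median difference of the 7 was -0.65. RAD27 (YKL113C), the flap endonuclease that trims Okazaki fragments, had the largest negative difference of the 32 genes. It read 6.18, 6.44 and 6.71 in wild type and 5.77, 5.71 and 5.37 in tra1-2ts (difference -0.82 ± 0.16, limma adjusted p = 0.00343 on genotype alone). The strains lay farther apart at each later time, but their difference of slopes did not pass (limma adjusted p = 0.67). RFA1 (YAR007C), the large subunit of the single-strand binding protein RPA, read 6.08, 6.35 and 6.49 in wild type and 5.56, 5.58 and 5.80 in tra1-2ts (-0.66 ± 0.12, adjusted p = 0.00345). RFA2 (YNL312W), the middle subunit, read 7.03, 7.30 and 7.45 in wild type and 6.32, 6.59 and 6.89 in tra1-2ts (-0.65 ± 0.16, adjusted p = 0.0119). For both subunits every mutant array lay under every wild-type array. RFA3 (YJL173C), the small subunit, did not follow them: it read 7.61, 7.95 and 8.28 in wild type and 7.83, 7.97 and 7.98 in tra1-2ts, a difference of -0.02 (interval -0.38 to 0.34, adjusted p = 0.92).

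The fourth lower gene of that group was CDC21 (YOR074C), thymidylate synthase, at 2.38, 2.89 and 3.24 in wild type and 1.99, 2.17 and 2.16 in tra1-2ts (-0.73 ± 0.19, limma adjusted p = 0.016). All its values lay under the highest mouse control and its probe set is of a kind, marked _f_at, that can match related sequences, so this difference is uncertain. CDC9, the DNA ligase that seals Okazaki fragments, and CDC45, which joins the replicative helicase at origins, differed by -0.13 and -0.15 and did not pass.

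The 4 core subunits of cohesin gave no call, where 40.6% of all genes were called, and had a median difference of 0.01. MCD1 (YDL003W), the cleavable kleisin subunit, read 3.77, 4.13 and 4.46 in wild type and 3.94, 4.13 and 4.56 in tra1-2ts, nearly the same path in both strains (difference 0.09, interval -0.36 to 0.55). Of these values 4 lay under the highest mouse control. SMC1 (YFL008W), an ATPase arm of the ring, read 5.77, 5.93 and 6.17 in wild type and 5.83, 6.05 and 6.31 in tra1-2ts (0.10, interval -0.23 to 0.44). SMC3 (YJL074C), the other arm, stayed between 5.37 and 5.55 on all arrays (-0.07, interval -0.28 to 0.14). IRR1 (YIL026C), also called Scc3, read 3.36, 3.52 and 3.12 in wild type and 2.92, 3.20 and 3.24 in tra1-2ts, within the range of the mouse controls (-0.21, interval -0.51 to 0.08). The adjusted p of the 4 ran from 0.22 to 0.74 (limma).

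Of the 8 remaining genes 3 were lower and none was higher, where 22.3% and 18.3% of all genes were. SWE1 (YJL187C), the kinase that restrains Cdc28 before mitosis, read 3.96, 3.86 and 4.49 in wild type and 3.48, 3.59 and 3.79 in tra1-2ts (-0.48 ± 0.17, limma adjusted p = 0.0461). Of its 6 values 5 lay under the highest mouse control, so this difference is uncertain. ASF1 (YJL115W), a histone chaperone, read 6.90, 7.27 and 7.39 against 6.45, 6.70 and 6.96, and its groups overlapped (-0.48 ± 0.16, adjusted p = 0.0437). MSH6 (YDR097C), a mismatch repair protein, read 6.03, 6.32 and 6.33 against 5.71, 5.92 and 5.97 (-0.36 ± 0.12, adjusted p = 0.0371). These 3 calls were the least secure, since centring the arrays on their medians ended all of them, with adjusted p of 0.0754, 0.0647 and 0.0604. Without both 90 min arrays the lower calls were 3 in place of 9. Not called were RAD53, the checkpoint kinase (-0.17), SPT21, an activator of histone genes (0.29), TOS4, a forkhead-associated protein (-0.37), TOS6, a cell wall protein (-0.07), and CSI2 (0.15). Leaving out 1 array at a time ended the call of MSH6 or ASF1 without any of 4 arrays (wild type at 90 or 120 min, tra1-2ts at 60 or 90 min) and that of SWE1 without 3 of them, with adjusted p up to 0.134.

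**Figure D3:**
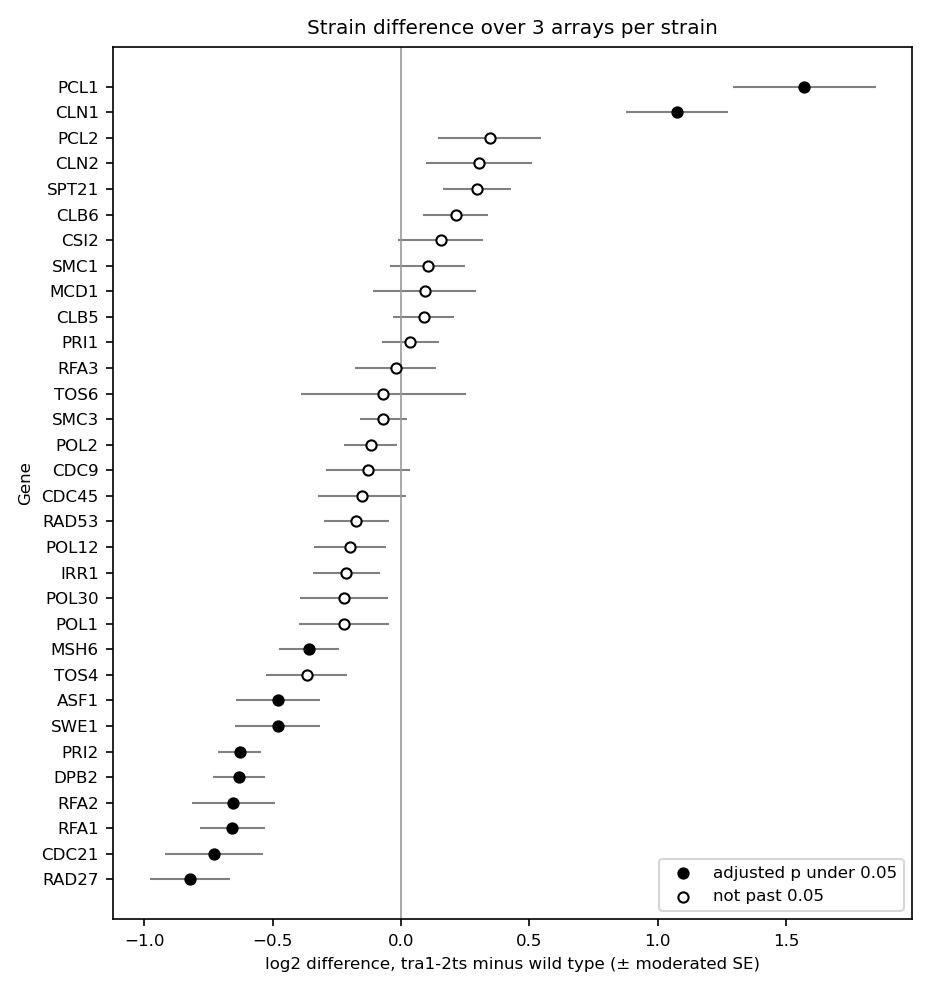
The x axis is the log2 difference, tra1-2ts minus wild type, over 3 arrays per strain, with bars for the moderated standard error and 1 row per gene in order of the difference. Filled points passed an adjusted p of 0.05: PCL1 and CLN1 on the right and 9 genes on the left, of which RAD27 is lowest at -0.82.

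The second comparison asked how the genes changed from 60 to 120 min at 37 °C. Nearly all had a positive slope in each strain: 30 of 32 in wild type, with a median of 0.44 per 60 min, and 30 of 32 in tra1-2ts, with a median of 0.31. Over all genes 49.3% and 46.7% of slopes were above 0, with medians of 0.00 and -0.02. In wild type, 21 of the 32 genes were higher at each later time, as were 17.8% of all genes. In tra1-2ts it was 24 of the 32, and 21.1% of all genes, and 17 did so in both strains, beside 5.82% of all genes. The exceptions in wild type were PRI1 (-0.02) and IRR1 (-0.24), and in tra1-2ts PRI1 (-0.23) and RAD27 (-0.40).

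With a slope common to both strains, 31 of 32 genes were above 0, where 47.1% of all genes were, and the median was 0.41 per 60 min (1.33-fold). Only PCL1 and TOS6, 2 of the 32 genes, rose past an adjusted p of 0.05 (limma, Benjamini-Hochberg). Of all genes 0.324% passed: 0.0721%, 4 in number, rose and 0.252%, 14 in number, fell. At an unadjusted p under 0.05, 22 of the 32 had a positive slope and 0 a negative one, where 7.13% and 9.03% of all genes did, 16.2% together. The other 2 of the 4 genes that rose were RNR1, the large subunit of ribonucleotide reductase, and HTB2, a histone H2B gene, both of S phase. TOS6 (YNL300W), a wall protein named as a target of SBF, read 9.79, 10.12 and 11.00 in wild type and 9.71, 10.34 and 10.67 in tra1-2ts. Its slope was 1.21 in wild type and 0.96 in tra1-2ts, and the difference of slopes did not pass (-0.25, 95% interval -0.91 to 0.41). The common slope was 1.09 ± 0.14 per 60 min (SE, 2.12-fold, limma adjusted p = 0.0355). PCL1, whose 6 values are given above, had a common slope of 0.93 ± 0.12 (1.91-fold, adjusted p = 0.0382).

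Just short of the threshold came MCD1 with a common slope of 0.65 ± 0.10 (limma adjusted p = 0.0554), then RFA2 with 0.50 (0.0739), ASF1 with 0.50 (0.0739), PCL2 with 0.61 (0.0846), CDC45 with 0.52 (0.0871) and SMC1 with 0.44 (0.0888). CLN2 had 0.62 (0.106), CLN1 0.55 (0.157), POL12 0.41 (0.102) and POL30 0.48 (0.138). Within cohesin, MCD1 and SMC1 thus had larger slopes than SMC3 (0.10) and IRR1 (0.04), whose limma adjusted p were 0.688 and 0.931. The slopes of different genes were not tested against each other. MCD1 and IRR1 were low genes, MCD1 with 4 values under the highest mouse control. The mean of the mouse controls was also higher at 120 than at 60 min, by 0.23 in wild type and 0.24 in tra1-2ts. It was lowest at 90 min in both. PRI1 was the gene with a negative common slope, at -0.13 (adjusted p = 0.666). By role, the median common slope was 0.58 for the 6 cyclins, 0.22 for the 7 polymerase, primase and clamp genes, 0.46 for the 7 other replication genes, 0.27 for the 4 cohesin genes and 0.41 for the other 8. The calls of PCL1 and TOS6 rest on having all 6 arrays: leaving out any 1 array ended 1 or both, with the highest adjusted p at 0.278, while the median slope stayed between 0.32 and 0.43 under every alternative tried.

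Fitted separately, the slopes were larger in wild type for most genes, but no difference of slopes passed. The 5 largest wild-type slopes were those of TOS6 (1.21 ± 0.19 per 60 min, SE), PCL1 (1.09 ± 0.16), CLN2 (0.87 ± 0.16), CDC21 (0.86 ± 0.14) and PCL2 (0.82 ± 0.15). In tra1-2ts they were those of TOS6 (0.96 ± 0.19), PCL1 (0.77 ± 0.16), MCD1 (0.62 ± 0.14), RFA2 (0.57 ± 0.13) and ASF1 (0.51 ± 0.14). In neither strain did any of the 5551 genes pass an adjusted p of 0.05, so 0% were called (limma). At an unadjusted p under 0.05, 19 of the 32 slopes were positive in wild type and 0 negative, where 5.76% and 8% of all genes were, 13.8% together. In tra1-2ts 9 were positive and 1, that of RAD27, negative, where 4.72% and 6.54% of all genes were, 11.3% together. Across the 32 genes the slopes of the strains had a Pearson r of 0.513, and across all 5551 genes 0.364, with arrays of the same times on both sides.

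The difference of slopes, tra1-2ts minus wild type, was below 0 for 22 of 32 genes, with a median of -0.15, where 51% of all genes were below 0. It passed for 0 of the 5551 genes by limma, 0%, and at an unadjusted p under 0.05 it was negative for 3 of the 32 and positive for 0, where 3.75% and 3.31% of all genes were, 7.06% together. The 3 were RAD27, CDC21 and RFA3. RAD27 had a slope of 0.53 in wild type and -0.40 in tra1-2ts, a difference of -0.93 (95% interval -1.42 to -0.44, adjusted p = 0.67). It went up at each step in wild type and down at each step in tra1-2ts, the opposite order in the 2 strains. CDC21 had slopes of 0.86 and 0.17, a difference of -0.69 (interval -1.17 to -0.21, adjusted p = 0.67). Its wild-type values lay within the range of the mouse controls and its 3 tra1-2ts values below the lowest of them, 2.19. RFA3 had slopes of 0.67 and 0.15 (interval of the difference -0.97 to -0.06, adjusted p = 0.686). For CLN2 and PCL2 the differences were -0.51 (interval -1.05 to 0.02) and -0.42 (interval -0.93 to 0.09), and for CLB5 and MCD1 they were -0.07 and -0.07.

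**Figure D4:**
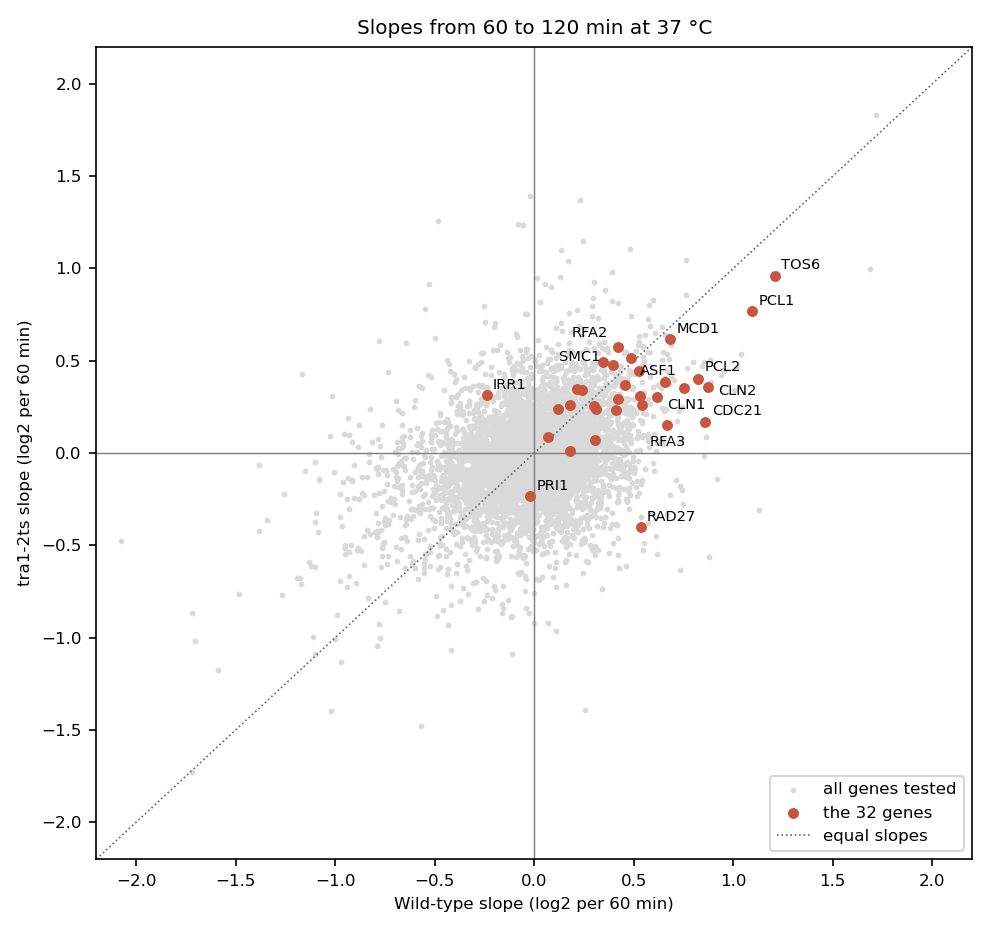
The slope of each gene from 60 to 120 min, in log2 units per 60 min, in wild type on the x axis and in tra1-2ts on the y axis, grey for all 5551 genes and red for the 32. Most red points lie in the upper right part and under the dotted line of equal slopes, TOS6 and PCL1 lie farthest out, and RAD27 lies below 0 in tra1-2ts.

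Genes of other stages of the cycle were set beside these results. Of 10 M/G1 genes, which are transcribed as daughter cells separate, all 10 had a negative common slope, with a median of -0.71 per 60 min, and 3 fell: the chitinase gene CTS1 (-0.77, limma adjusted p = 0.0355), EGT2 (-0.84, 0.0487) and DSE4, an endoglucanase of the septum (-1.05, 0.0318). The median level of that list went from 8.24 to 7.74 and 7.33 in wild type and from 8.06 to 7.44 and 7.25 in tra1-2ts, opposite to the median of the 32 genes, which went from 5.75 to 5.85 and 6.11 and from 5.63 to 5.68 and 5.82. Of 17 G2/M genes, 12 had a positive and 5 a negative common slope, with a median of 0.09 and no call, and 1 had an unadjusted p under 0.05. Between the strains, 4 of the 17 G2/M genes were higher and 4 lower, where 18.3% and 22.3% of all genes were. MOB1 was 1.93-fold higher, and SWI5, CHS2 and KIN3 were 1.59-, 1.58- and 1.37-fold lower. In the M/G1 list 1 of 10 genes passed the strain test on genotype alone, where 40.6% of all genes did. It was ASH1, a repressor made for daughter cells, 1.55-fold higher. With minutes as a covariate 4 more passed by limma: CTS1 (0.62, adjusted p = 0.000633) and DSE4 (0.30, 0.0321) were higher, and RME1, a repressor of meiosis (-0.57, 0.00386), and PCL9, a Pho85 cyclin (-0.38, 0.0198), were lower. What part the mix of cell cycle stages had in the results for the 32 genes was not tested.

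Other genes of the same pathway did not all follow. Of 17 further genes transcribed at G1/S, 15 had a positive common slope, with a median of 0.31, and RNR1 rose. RNR1 read 6.65, 7.64 and 8.37 in wild type and 7.19, 8.32 and 9.02 in tra1-2ts, which is 1.78 ± 0.12 per 60 min (SE; 3.43-fold, limma adjusted p = 0.00267). Its strain difference of 0.62 did not pass on genotype alone (adjusted p = 0.355) and passed with minutes as a covariate (0.00147). On genotype alone, 3 of the 17 were higher and 2 lower in tra1-2ts. Over all genes 18.3% were higher and 22.3% lower, shares that also stand beside the strain counts of the lists below. GIC2, an effector of Cdc42 in bud formation, was 1.97-fold and the wall genes CRH1 and SVS1 1.42- and 1.40-fold higher. HCM1, a transcription factor of S phase, and RAD54, a recombination gene, were 1.51- and 1.33-fold lower. Of 25 genes of origin licensing and firing, 14 had a positive common slope, with a median of 0.01, and 0 passed by limma (smallest adjusted p 0.144), with 5 at an unadjusted p under 0.05. In that list MCM4, a helicase subunit, was 1.76-fold higher and ORC2, of the origin recognition complex, 1.20-fold lower in tra1-2ts. SLD2, which helps origins fire, was lower with minutes as a covariate (-0.33, limma adjusted p = 0.0386). Of 25 other fork genes, 15 had a positive common slope (median 0.07), 0 passed by limma and 4 had an unadjusted p under 0.05. In tra1-2ts 4 of them were higher, RFC2, POL3, TOP1 and DCC1, and 4 lower, RFC4, POL31, RRM3 and DPB4. Of 8 genes for cohesin loading, acetylation and release, 1 differed between strains, the acetyltransferase gene ECO1 (1.26-fold higher). Of 5 mismatch repair genes measured beside MSH6, 0 passed either test and 1 in each had an unadjusted p under 0.05 (limma). With minutes as a covariate the exonuclease gene EXO1 was lower (-0.27, limma adjusted p = 0.0289, against 0.0752 on genotype alone).

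**Figure D5:**
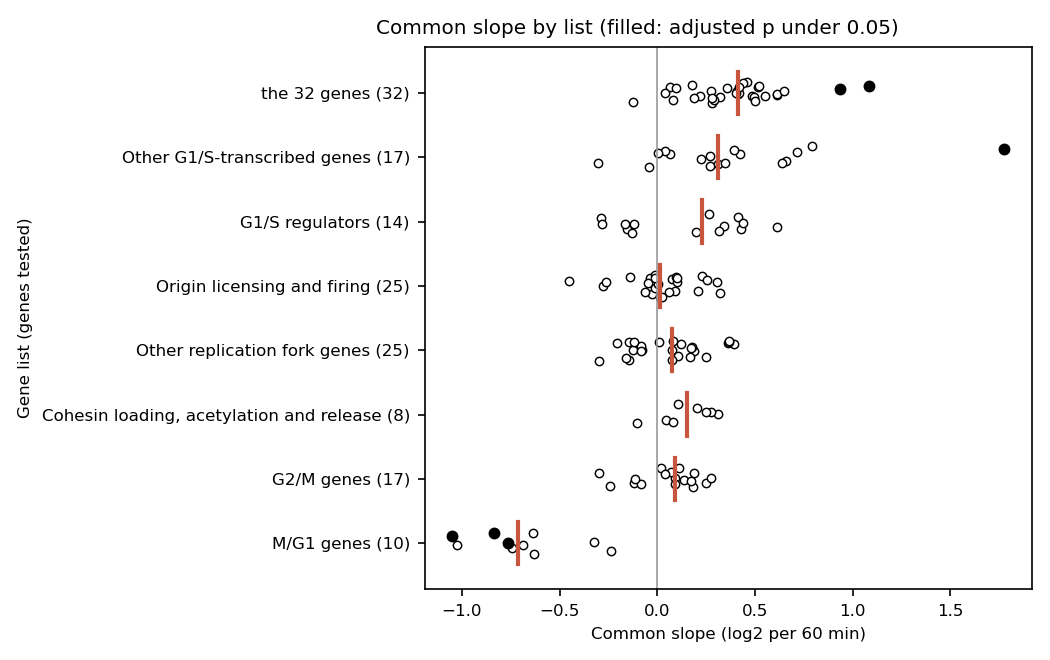
Common slope over both strains, in log2 units per 60 min, with 1 point per gene, filled where the adjusted p was under 0.05, and a vertical bar at each list's median; the number of genes tested is in brackets. The 32 genes (median 0.41) and the further G1/S-transcribed genes (0.31) lie mostly right of 0, the licensing, fork and G2/M genes lie around 0, and all 10 M/G1 genes lie left of it.

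Of 14 regulators of the passage, 1 was higher and 3 lower in tra1-2ts. Over all genes 18.3% were called higher and 22.3% lower, 40.6% together, so this count does not set the regulators apart. FAR1, the inhibitor of Cln-Cdc28 that pheromone induces, was 2.37-fold higher, at 6.69, 6.16 and 6.14 in wild type and 7.58, 7.58 and 7.56 in tra1-2ts (1.24 ± 0.15, limma adjusted p = 0.000396). It moved with the genes special to a cells, all 6 of which were higher in tra1-2ts, by 1.62- to 3.21-fold. The 4 genes special to alpha cells were also all higher, and 2 of them, MF(ALPHA)1 and SAG1, passed the strain test. Their median difference was 0.33, beside 1.38 for the genes special to a cells. CDC28 itself, the kinase, was 1.64-fold lower (-0.72 ± 0.16, adjusted p = 0.00783), BCK2, an activator of G1/S genes, 1.29-fold lower and SWI6, the shared subunit of SBF and MBF, 1.24-fold lower, from 4.57 to 4.25, close to the highest mouse control. What part these changes had in the levels of the 32 genes was not tested. By the gene order of the RefSeq annotation, 8 pairs of neighbouring protein-coding genes join 1 of the 32 to a gene of the other lists. CLB5 lies beside CLB2 and CLB6 beside CLB1, TOS4 beside SWI6, POL30 beside RFC5, PCL1 beside RFC3, POL2 beside ORC5, CSI2 beside TOP1 and CDC21 beside SGO1. No 2 of the 32 genes were neighbours.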

How the data were processed

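RNA of 3 wild-type and 3 tra1-2ts samples was labelled with a 3' in vitro transcription kit, per the labels' protocols. The deposited values are log2 signals, for which the submitters' processing notes name RMA and the package oligo, with no version. RMA makes the distributions of all arrays alike, so a change of all mRNA at once cannot be seen. Of 6776 probe sets, 5668 name 1 gene, 183 several and 925 none. All 5668 were matched by gene ID to RefSeq (assembly R64); 91 genes had several probe sets, of which the brightest was kept, leaving 5551 genes with no filter on low values. Columns of other samples numbered 0.

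Fits used limma 3.58.1 in R 4.3.3, two-sided: genotype alone (4 residual degrees of freedom), genotype with a common slope (3), and a slope per strain (2). Slopes are per 60 min, intervals are 95% from moderated errors, and the fits were tested on simulated data. The arrays' number limits precision. All 32 genes may be named, and of each other list the 4 with the smallest strain p; other list genes named were called in a test and chosen after their values were seen. The 32 genes and all lists were chosen with earlier results of these data known. Promoter motifs were planned and are not analysed here. Alternatives were the time point as a factor, minutes as a covariate, 2 scalings, a filter on low genes, probe set means, trended robust moderation, a threshold of 0.01, arrays left out and log2 of minutes.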

Additional observations from a re-analysis of the deposited data

How the results depend on the processing

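Over 15 alternatives to the strain test the calls of PCL1, PRI2, DPB2 and RAD27 were kept, as was that of CLN1 in the 14 that tested it; without both 90 min arrays RFA1, RFA2, CDC21, SWE1, ASF1 and MSH6 lost theirs (limma adjusted p 0.0614 to 0.229). With the time point as a replicate block 4 of the 32 genes were higher, and with minutes as a covariate also 4, in place of 2; with genes under the lower quartile left out it was 1, because CLN1 was not tested. Of the other lists' genes, CTS1, DSE4, RNR1, EXO1, HTB2, PCL9 and RME1 passed with the block (adjusted p 0.00151 to 0.0391) and not without it, and SLD2 joined them with minutes. The numbers in the titles mark times, so arrays of the same number share a time by design. Deviations from the strain means correlated by 0.31, 0.0656 and 0.33 between the strains at 60, 90 and 120 min. All 6 arrays matched their own number best, though at 90 min only weakly. At a threshold of 0.01, 4 of the 32 were lower and 576 and 808 of all genes higher and lower. Without both 90 min arrays these were 3, 383 and 621. For the common slope a threshold of 0.01 left 0 of the 32, and 1 higher and 0 lower of all genes; leaving out the 90 min arrays left 0, 1 and 1, and leaving out low genes 7 lower of all.

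Leaving out 1 array at a time gave 2 to 5 higher and 5 to 10 lower of the 32 in the strain test (CLN2, PCL2 and SPT21 joined without the wild-type 120 min array; CDC21, SWE1, ASF1 and MSH6 left without the tra1-2ts 60 min array), and 651 to 992 higher and 910 to 1222 lower of all genes, the lowest higher count without the tra1-2ts 90 min array. For the common slope it gave 0 to 1 of the 32, and 0 to 4 higher and 0 to 8 lower of all genes. For the slope per strain 0 to 16 of the 32 passed for wild type and 0 to 5 for tra1-2ts, with 2 to 194 higher and 2 to 319 lower of all genes in wild type and 0 to 117 and 0 to 178 in tra1-2ts. For the slope difference it gave 0 to 1 lower of the 32 (RAD27 without the wild-type 90 min array, adjusted p = 0.0312), and 0 to 108 higher and 0 to 102 lower of all genes. The high counts came without a wild-type array, when the spread rests on the tra1-2ts arrays alone by construction. For the wild-type slope over all genes, centring gave 2 higher, trended robust moderation 2 and 1, and log2 of minutes 1 and 1. For tra1-2ts they gave 1 higher, 1 and 1, and 1 higher. Elsewhere the cause was not tested.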

Other observations

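Histone genes are made in S phase, and 5 probe sets that each name a pair of histone genes were outside the tests because they name several genes. Between 60 and 120 min, the 2 sets for the H3 pair HHT1 and HHT2 changed by 0.59 and 0.49 in wild type and by 0.22 and 0.23 in tra1-2ts, and the set for the H4 pair HHF1 and HHF2 by 0.46 and 0.32. Of the 2 sets for the H2A pair HTA1 and HTA2, 1 changed by 0.71 and 0.33 and the other by -0.03 and 0.24. The latter read from 12.28 to 12.70, and the H3 sets from 11.84 to 13.02. These are differences between single arrays with no test. HTB2, tested alone, read 8.005, 8.72 and 9.69 in wild type and 7.87, 8.38 and 8.87 in tra1-2ts at 60, 90 and 120 min, a common slope of 1.34 ± 0.16 per 60 min (SE; limma adjusted p = 0.0318), while HTB1, the other H2B gene, had 0.18 (adjusted p = 0.497). Between the strains HTB1 was 1.30-fold higher in tra1-2ts (limma adjusted p = 0.0235). HTB2 differed the other way, by -0.43, which did not pass on genotype alone (adjusted p = 0.411) and passed with minutes as a covariate (0.0266).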
